A study of Danio rerio
Oryzias latipes and Oryzias latipes and Danio rerio with 7 samples.

Results

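The medaka host tissue of zebrafish-medaka chimeras ("zebraka") was compared with medaka embryos through the expression values that had been assigned to medaka genes. Of 20459 medaka gene identifiers, 13721 entered the comparison. These genes had a mean rescaled FPKM of at least 1 in medaka embryos or in chimeras, and a mean under 1 when the 2 zebrafish libraries were aligned to the medaka genome. FPKM relates the fragments of a gene to the length of its transcripts and to the sequencing depth of the library. The chimeras were medaka embryos of strain Cab that had received blastomeres of zebrafish strain AB at the blastula stage (3 libraries, labelled Cab/AB). The controls were unoperated Cab medaka embryos (2 libraries), and AB zebrafish embryos (2 libraries) served only to recognise reads of zebrafish origin. Medaka and chimeras shared ERM medium, zebrafish were kept in E3 medium, and the temperature was 28 °C for all. Each library came from total embryos and poly(A)-selected RNA. The labels give the stage only as embryo, with no age in hours, no number of embryos per library, no number or final position of transplanted cells, and no mock-operated group. Age, the operation and the presence of zebrafish cells therefore cannot be told apart as sources of a difference between the groups.

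Medaka (Oryzias latipes) and zebrafish (Danio rerio) are distantly related fish with similar body plans but different rates of development, and blastomeres of one can join the embryo of the other. In such a chimera the host builds its own organs around and together with the foreign cells. Host transcripts can be separated from donor transcripts because most reads of one species do not align to the genome of the other. Fish embryos leave the patterning programme of gastrula and tailbud stages as they build lens, retina, neurons and muscle, and their innate immune cells are able to respond to wounding. In RNA from whole embryos, fewer cells of a type and less RNA per cell cannot be told apart.

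The width of the deposited confidence limits corresponded to totals of 21491640 and 18330408 fragments in the medaka libraries, and of 30983952, 27167734 and 27824199 in the chimera libraries. It corresponded to 63818 and 81765 in the zebrafish libraries on the medaka genome. The 10 most abundant identifiers held 39.7% and 39.8% of all FPKM in medaka libraries but 28.1% to 29.3% in chimera libraries, so values were rescaled by a median ratio over 12808 genes before any comparison. Chimera replicates 1 and 3 were nearly indistinguishable. Scatter between libraries was expressed as the median over genes of the squared difference in units of counting error, scaled so that 1 means counting error alone. It was 1.09 for chimera replicates 1 and 3, over 11888 genes with at least 100 fragments, against 1.83 for the medaka pair over 11149 genes, and 4.27 and 3.64 for chimera replicate 2 against replicates 1 and 3. In genes with 1000 to 3000 fragments the ratio was 0.997 for replicates 1 and 3 and 2.46 for the medaka pair, and in genes with over 10000 it was 2.08 and 20.6. The difference of replicates 1 and 3 exceeded 5 counting errors in 27 genes (0.227%), against 101 genes (0.906%) for the medaka pair. Pearson's r across the 11888 genes was 0.9980 for replicates 1 and 3 and 0.9968 at most for other pairs over their own genes. Across all 13721 genes, low ones included, it was 0.963 for replicates 1 and 3 and 0.974 for the medaka pair, and chimera replicates 2 and 3 reached 0.980. In genes with at least 100 fragments replicates 1 and 3 thus differed less than any other pair and, in most of them, by no more than sampling noise. They were averaged and counted as 1 sample, which leaves n = 2 medaka and n = 2 chimera samples. The labels do not say how any replicate was obtained, so p-values reflect only how far these samples scatter, and that scatter may be technical.

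**Figure D1:**
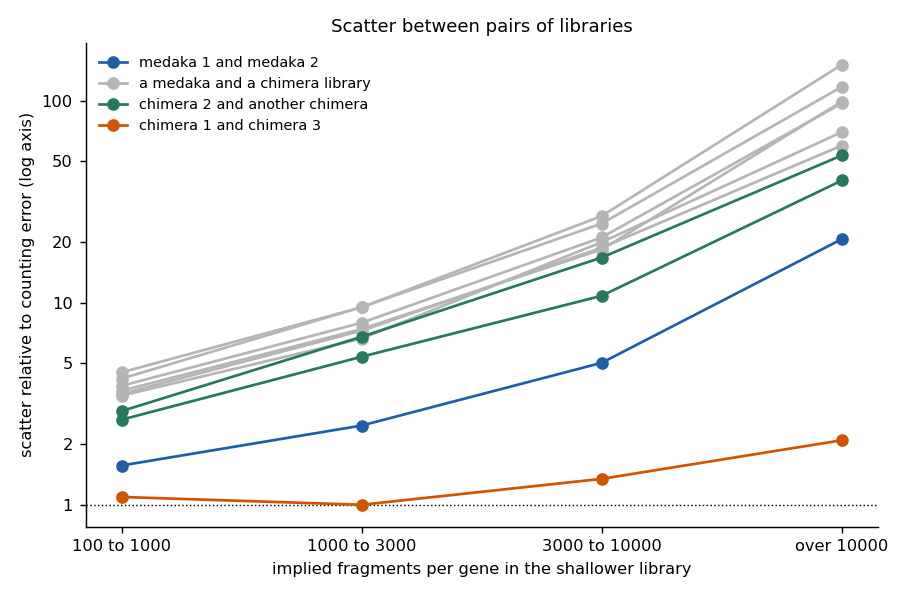
Scatter between each pair of the 5 libraries (vertical log axis, ratio to counting error) in 4 classes of genes by implied fragments (horizontal axis); each line is 1 pair of libraries and the dotted line marks counting error alone. The line of chimera replicates 1 and 3 stays between 0.997 and 2.08, below the medaka pair and below every other pair in all 4 classes.

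Most host genes differed little in level between chimeras and medaka embryos. Over the 13721 genes the median log2 difference, chimera minus medaka on log2(rescaled FPKM + 1), was -0.001, and 96.2% of genes lay within 1.5-fold. At an adjusted p under 0.05 (limma, Benjamini-Hochberg over all 13721 genes), 126 genes were higher in chimeras (0.918% of those tested) and 175 were lower (1.28%). Of these, 73 were higher (0.532%) and 110 lower (0.802%) by at least 1.5-fold. Without adjustment, 2591 genes had a limma p under 0.05 (1215 higher and 1376 lower). Scatter between a medaka and a chimera library was 4.35 to 6.23 in the units used above, against 1.83 for the medaka pair. For chimera replicate 2 against replicates 1 and 3 it was 4.27 and 3.64. On the log2(rescaled FPKM + 1) scale, the median size of a call was 1.54-fold for higher and 1.57-fold for lower genes, the smallest calls were 1.28-fold and 1.29-fold, and 22 higher and 44 lower genes reached 2-fold. Folds of single genes below are ratios of mean rescaled FPKM, while log2 values and tests use log2(rescaled FPKM + 1), which understates the change of low genes. Of the 301 calls (2.19%), 41.9% were higher, and with FPKM as deposited 54.8% of calls were higher (211 higher and 174 lower), the median over all genes being 0.054. Groups without overlap between the 5 libraries were common in both directions: 21.8% of genes were higher in all 3 chimera libraries than in both medaka libraries, and 22.7% were lower, 44.5% in all. Among the calls, groups did not overlap in 123 of 126 higher and in all 175 lower genes. Absence of overlap in a called gene is therefore no support beyond the call itself. With the 3 chimera libraries entered as separate samples the calls were 366 higher and 437 lower, and 289 of the 301 calls were among them. Among the calls, 27 higher and 53 lower genes rested on fewer than 100 fragments per library on average. In 14 higher and 41 lower calls the lower group's mean was under the minimum of 1, so these genes entered the comparison only through the group in which they were high.

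**Figure D2:**
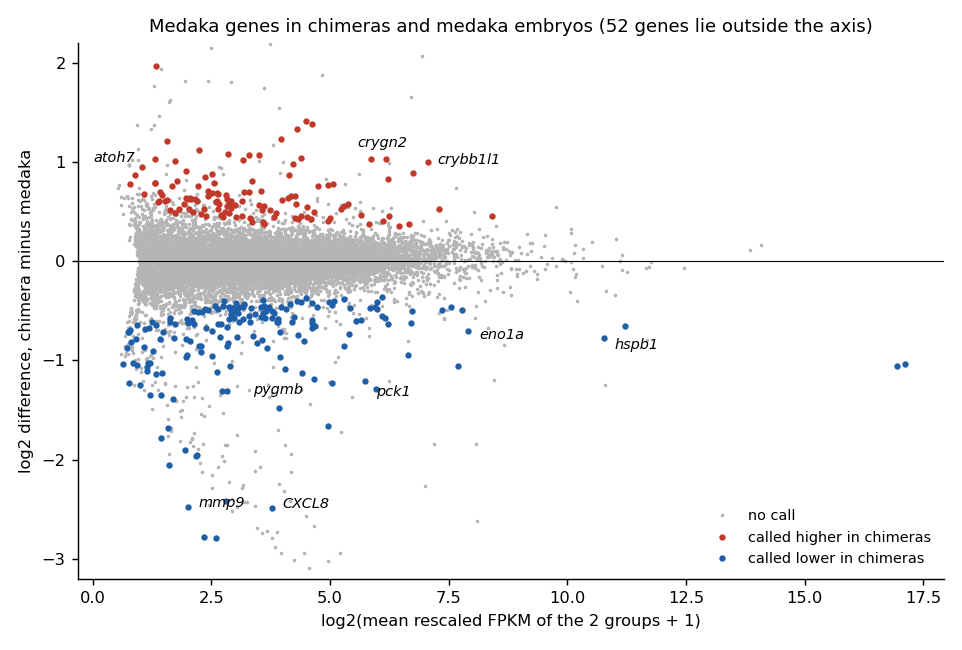
Log2 difference of each tested medaka gene, chimera minus medaka (vertical axis), against its mean level, log2(mean rescaled FPKM + 1) (horizontal axis); red and blue points are genes called higher or lower, grey points have no call, and 52 genes lie outside the vertical range. Calls are few and mostly small, with crystallin genes such as crygn2 and crybb1l1 at the upper edge, and CXCL8, mmp9, pck1 and pygmb at the lower edge.

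Calls were looked up in 60 gene lists that cover cell types, organs, signalling pathways and housekeeping processes, with 4 to 123 tested members each. The lists held 2103 of the 13721 tested genes, and several had no call. Only genes with a symbol could be listed, and 95 of the 126 higher and 113 of the 175 lower calls carried a symbol. Lens genes had the highest median of any list (0.61) and the most calls in 1 direction, with 10 of 20 tested members higher. Neural progenitor genes followed with 9 of 43 higher and none lower, glial genes with 5 of 21 higher and none lower, and retina genes with 4 of 34 higher and 1 lower. Fabp7a, gfap and her4.2 were called in both the neural progenitor and the glial list, so these 2 lists are not separate results. On the other side stood inflammatory signalling, with 9 of 53 lower and none higher, and muscle, with 7 of 59 lower and 2 higher. Counts of calls in a list, here and below, are to be read against 0.918% higher and 1.28% lower over all genes. Many core processes had no call at all. With 2.19% of all genes called in either direction, lists of their size would hold few calls at that share. Of 61 mitochondrial ribosome genes, 60 ribosome biogenesis genes, 58 Wnt genes, 54 mitosis genes, 50 cilium genes, 39 translation factors, 32 proteasome genes and 16 aminoacyl-tRNA synthetases, none passed the test in either direction. Their median log2 differences lay between -0.06 for ribosome biogenesis and 0.12 for the proteasome. The signs were not always balanced: 48 of 54 mitosis and 29 of 32 proteasome genes had a positive difference. Of 60 ribosome biogenesis genes, 49 had a negative one. Signs were more even for mitochondrial ribosome genes (34 positive, 27 negative) and Wnt genes (33 positive, 25 negative). With n = 2 in each group, the absence of calls does not mean the absence of change. With FPKM as deposited the medians of these lists ran from 0 to 0.18. In the fit with 3 separate chimera libraries, 4 ribosome biogenesis genes were lower, and 2 mitosis and 2 proteasome genes were higher. In that fit 1 Wnt gene was higher and 3 were lower, and the cilium and translation factor lists had 1 lower gene each. The 60 lists were themselves chosen with earlier results of these data known, so they are no independent evidence either. Members named beyond the 4 of smallest p in a list and the largest changes were chosen after their values were seen.

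**Figure D3:**
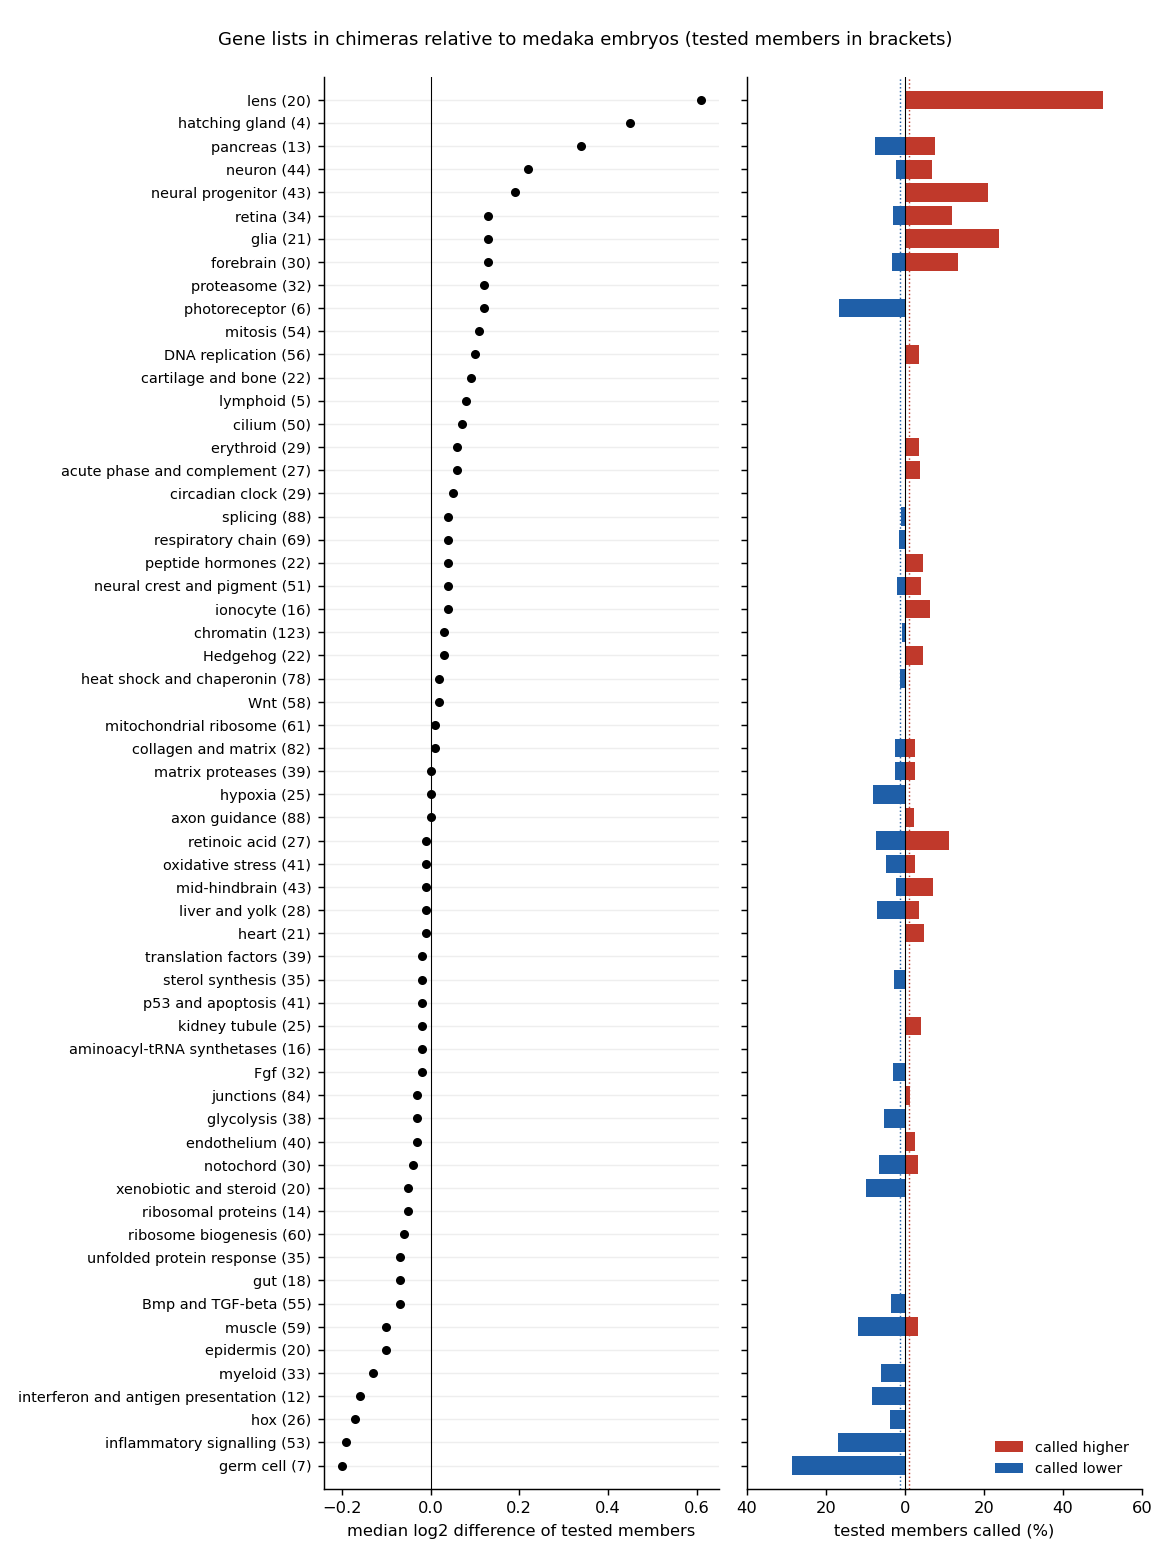
The 60 gene lists ordered by the median log2 difference of their tested members (left panel, chimera minus medaka) and the percentage of tested members called higher (red) or lower (blue) in chimeras (right panel); the number tested is in brackets and dotted lines mark 0.918% higher and 1.28% lower over all genes. The lens list stands at the top with 10 of 20 members higher, and inflammatory signalling near the bottom with 9 of 53 lower.

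Of 20 tested lens genes, 10 were higher in chimeras and none was lower by the test. Of the other 10, 5 had a positive and 5 a negative difference, and the 5 negative ones included foxe3, lgsn and dnase2b. Groups did not overlap in 15 higher and 5 lower members of the list. Over all genes, 21.8% were higher and 22.7% lower without overlap, so the lower count was near the share of all genes. The lens is built from fibre cells that fill with crystallins, the transparent structural proteins, and that exchange water and ions through aquaporins and gap junctions. Crygn2, a gamma-crystallin gene on chromosome 20 at 2701766 to 2706228 (coordinates as deposited, on a medaka build not given in the sources used here), had rescaled FPKM of 44.9 and 49.1 in medaka replicates 1 and 2 and 95.5, 97.2 and 96.8 in chimera replicates 1, 2 and 3. Every chimera library was about as far above the medaka libraries as the next. The means were 47.0 ± 2.93 and 96.7 ± 0.749 (SD, n = 2 each), a 2.06-fold difference (log2 1.03, SE 0.07, limma adjusted p = 0.0032). Crybb1l1, a beta-crystallin gene, read 82.3 and 95.4 in medaka and 169.9, 187 and 169.6 in chimeras (2.01-fold, adjusted p = 0.012). Cryba2b, another beta-crystallin gene, read 34.3 and 40.2 against 75.0, 78.4 and 74.6 (2.06-fold, adjusted p = 0.0091). The chimera libraries lay close together for these genes, and the medaka libraries differed from each other by less than the step between the groups. Cryba1b rose from 52.8 to 94.5 on average (1.79-fold, adjusted p = 0.0041), and cryaa, the alpha-crystallin A gene, rose from 11.6 to 21.8 (1.88-fold, adjusted p = 0.030).

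Genes of lens membranes rose by similar amounts. Mipb, a lens aquaporin gene, rose from 11.7 ± 1.92 to 23.9 ± 0.322 (SD, n = 2 each, 2.05-fold, adjusted p = 0.018), and its paralogue mipa rose 2.4-fold (adjusted p = 0.025). Cx44.1, a lens gap junction gene, read 5.67 and 7.19 against 11.2, 12.5 and 11.7 (1.86-fold, adjusted p = 0.031). The 3 called lim2 genes, which encode lens fibre membrane proteins, rose between 1.72-fold (lim2.4) and 1.93-fold (lim2.3). In contrast, no call was made for foxe3, a lens epithelium transcription factor (1.41 in medaka and 1.14 in chimeras on average, adjusted p = 0.45), or for cryaba, an alpha-crystallin B gene (1.40 and 0.573, adjusted p = 0.13). Both, like capn3a and crygmxl1 among the calls, were named after their values were seen. Over all crystallin symbols, a list drawn up after values had been seen, 9 of 12 tested genes were higher, none was lower, and the median log2 difference was 0.87. Crygmx and crygmxl2 lie next to each other on chromosome 19 between 8684834 and 8688769, and both rose (1.62-fold and 2.27-fold). How reads shared by such closely related copies were divided is not given in the sources used here. The summed rescaled FPKM of the 20 lens genes was 209.6 and 233 in medaka and 405 to 409 in chimeras. Of 18 calls in lens genes, including fabp11a and slc43a2a, 7 remained without medaka replicate 1, 14 without medaka replicate 2, 17 without chimera replicate 1, 7 without chimera replicate 2 and 16 without chimera replicate 3. Adjusted p-values of the lost calls ran from 0.050 to 0.23. Without an expression filter 9 remained, and without limma's trend and robust options 7. Fabp11a, slc43a2a, cx44.1 and capn3a belong to neither the lens nor the crystallin list. Slc43a2a was counted with these calls although it has no clear place among lens genes. Fabp11a and slc43a2a were among the calls that remained in both of these settings, while cx44.1 and capn3a were lost in both. Fabp11a is also counted among the retina calls below.

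In the retina and forebrain a few regulators moved within lists whose medians stayed close to 0.13. Fabp11a, a fatty acid binding protein gene expressed in the developing zebrafish eye, read 74.2 and 74.8 in medaka and 132, 142 and 139.9 in chimeras. The medaka libraries agreed closely and all chimera libraries were higher (1.87-fold, log2 0.89, SE 0.06, adjusted p = 0.0034). Atoh7, the transcription factor that starts retinal ganglion cell formation, read 0.464 and 0.352 against 1.71, 1.85 and 1.47 (4.21-fold, adjusted p = 0.020), on about 45 fragments per library. It entered the comparison only through its chimera level. Mab21l1, an eye growth gene, rose from 17.7 to 26.3 (adjusted p = 0.023), and foxn4, a transcription factor of retinal progenitors, from 5.11 to 8.0 (adjusted p = 0.028). Six3, an eye field and forebrain transcription factor, went the other way: it read 15.3 and 15.7 in medaka and 9.94, 10.2 and 10.1 in chimeras (1.54-fold lower, adjusted p = 0.015). All 3 chimera libraries were below both medaka libraries for six3, while pax6a, another eye field gene named after its value was seen, averaged 6.65 and 5.06 without a call (adjusted p = 0.095). The retina list held 4 higher and 1 lower among 34 tested genes.

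Forebrain regulators gave 4 higher and 1 lower among 30 tested (13.3% and 3.33%, against 0.918% and 1.28% over all genes). OTP, a hypothalamic transcription factor, read 0.373 and 0.271 against 1.04, 1.55 and 1.49 (adjusted p = 0.030) and entered the comparison only through its chimera level. Eomesa, a T-box factor of the early forebrain, averaged 1.04 and 2.31 (adjusted p = 0.026), gsx1 4.51 and 6.60 (adjusted p = 0.048), and ascl1b, a proneural factor, 7.92 and 13.5 (adjusted p = 0.013). The photoreceptor list had 6 tested members, too few for a description of that cell type, and its 1 call was a PDE6H record that was lower (9.03 and 3.86 on average, about 20 fragments). With 3 separate chimera libraries that record was not called (adjusted p = 0.096) and the list held 1 higher and no lower gene, while the second pde6h record was not called (adjusted p = 0.27). Of 10 calls in retina, photoreceptor and forebrain genes, 1 remained without medaka replicate 1, 2 without medaka replicate 2, 9 without chimera replicate 1, 2 without chimera replicate 2 and 7 without chimera replicate 3. The lost calls had adjusted p-values from 0.050 to 0.20. Dropping the expression filter left 4, and dropping limma's trend and robust options left 3.

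**Figure D4:**
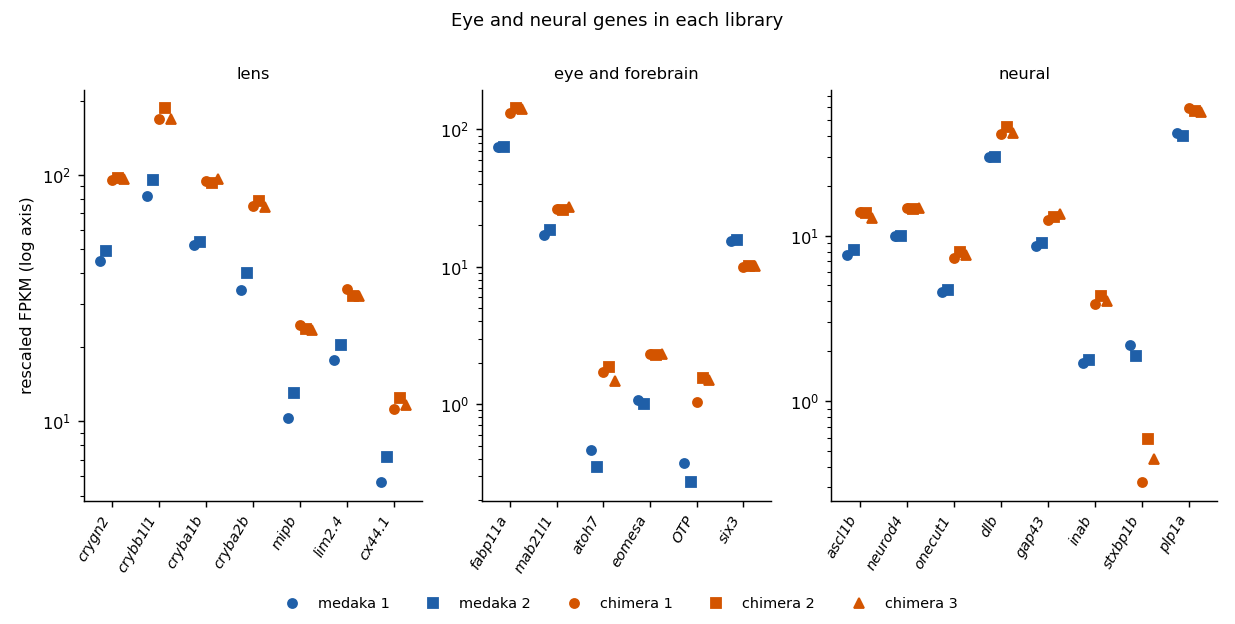
Rescaled FPKM (log axis) of 7 lens genes, 6 eye and forebrain genes and 8 neural genes in the 2 medaka libraries (blue) and the 3 chimera libraries (orange). All chimera points lie above all medaka points except for six3 and stxbp1b, where they lie below.

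The calls among genes of neural progenitors, neurons and glia were mostly higher in chimeras. Proneural factors turn neural progenitors into neurons, Delta-Notch signalling holds back their neighbours, and young neurons then switch on cytoskeletal genes for axon growth. Ascl1b read 7.60 and 8.24 in medaka and 13.9, 13.7 and 12.8 in chimeras. The 3 chimera libraries were all above the medaka pair (1.71-fold, log2 0.70, SE 0.07, adjusted p = 0.013). Neurod4, a later proneural factor, read 9.96 and 9.88 against 14.6, 14.5 and 14.7 (1.47-fold, adjusted p = 0.020), and onecut1, a transcription factor of differentiating neurons, 4.57 and 4.67 against 7.29, 7.93 and 7.59 (1.66-fold, adjusted p = 0.019). Both had libraries of a group close together. Dlb, a Delta ligand gene, rose from 29.9 to 43.6 (adjusted p = 0.027) and her4.2, a Notch target repressor gene, from 63.3 to 86.8 (adjusted p = 0.044). Of the 43 neural progenitor genes tested, 33 had a positive difference, the median was 0.19, and 9 passed the test, but 1 without an expression filter and none without limma's trend and robust options. The Notch receptor gene notch3 was not among them (33.3 and 33.9 against 39.7, 40.1 and 39.4, adjusted p = 0.11).

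Genes of neurons and synapses were higher in 3 cases among 44 tested, with 1 lower and a median of 0.22. These were 6.82% and 2.27%, against 0.918% higher and 1.28% lower over all genes. Gap43, a growth cone gene, read 8.60 and 8.99 against 12.4, 12.9 and 13.5 (1.47-fold, adjusted p = 0.023). Inab, an intermediate filament gene of growing axons, read 1.70 and 1.77 against 3.87, 4.29 and 4.02 (2.37-fold, adjusted p = 0.012), and 1 of 2 STMN2 records, which encode a microtubule regulator, rose 1.75-fold (adjusted p = 0.015). Stxbp1b, a synaptic vesicle fusion gene, was the exception, with 2.18 and 1.86 in medaka and 0.323, 0.589 and 0.448 in chimeras (4.15-fold lower, adjusted p = 0.020), while its paralogue stxbp1a read 1.68 and 2.17 against 2.46, 2.34 and 2.49 (adjusted p = 0.34). Stxbp1b entered the comparison only through its medaka level. Its call was lost with quantile normalization and without limma's trend and robust options. Glial and radial glial genes gave 5 higher among 21: pou3f1, fabp7a, plp1a, her4.2 and gfap, with folds from 1.61 for pou3f1 to 1.28 for gfap. Of these, fabp7a, her4.2 and gfap are also among the neural progenitor calls, and pou3f1 among the midbrain and hindbrain calls. The gfap call was lost with quantile normalization, and none of the 5 remained without limma's trend and robust options. Plp1a, a myelin protein gene, read 42.0 and 40.2 against 58.9, 56.5 and 56.3 (adjusted p = 0.026). Among guidance genes, dpysl3, which mediates growth cone responses, rose 1.52-fold (adjusted p = 0.018) and ntn1b, a netrin gene, 1.57-fold (adjusted p = 0.041). These were 2 of 88 tested (2.27%), against 0.918% higher over all genes.

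Several neural genes outside the lists were also called higher. They were named after their values were seen, so they are no independent evidence. Bcl11ab, a zinc finger transcription factor gene, averaged 0.626 and 2.32 (adjusted p = 0.013), stmn4 1.38 and 3.02 (adjusted p = 0.022), ncanb, a brain proteoglycan gene, 2.46 and 4.83 (adjusted p = 0.023), and helt, a midbrain repressor gene, 4.99 and 8.12 (adjusted p = 0.030). Bcl11ab entered the comparison only through its chimera level. In the hindbrain and midbrain list 3 of 43 genes were higher (6.98%, against 0.918% over all genes). The 1 lower gene (2.33%, against 1.28%) was fgf8b (8.41 and 5.62 on average, adjusted p = 0.041). All 27 calls in neural genes were lost without medaka replicate 1 or without chimera replicate 2, settings that leave 1 sample in a group. Without medaka replicate 2, chimera replicate 1 or chimera replicate 3, 6, 27 and 18 remained, and the lost calls had adjusted p-values from 0.050 to 0.29. Without an expression filter 6 remained, and without limma's trend and robust options 3. The 27 calls include nkx6.1, s1pr1, lhx1b and pax7a, which are reported and counted again below with the pancreas, endothelium, kidney tubule and neural crest lists. Ascl1b is also counted with the forebrain calls above, and fgf8b, ntn1b, cyp26b1 and fabp7a are counted again below.

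Several inflammatory genes fell in chimeras, some of them many-fold. The chemokine CXCL8 attracts neutrophils, mmp9 is a matrix protease that zebrafish switch on around wounds, and nfkbiaa and socs3b are feedback inhibitors that NF-kB and STAT3 signalling induce. CXCL8, on chromosome 1 at 16461218 to 16461836, read 26.3 and 18.3 in medaka and 3.45, 2.89 and 3.20 in chimeras. Both medaka libraries were several-fold above all 3 chimera libraries (7.17-fold lower in chimeras, log2 -2.48, SE 0.19, adjusted p = 0.016), with an average of 62 fragments per library. Mmp9 read 6.55 and 5.08 against 0.261, 0.183 and 0.235, a mean of 5.82 ± 1.04 against 0.216 ± 0.0458 (SD, n = 2 each), 27.0-fold lower (adjusted p = 0.0014). Nfkbiaa read 13.5 and 14.8 against 7.21, 7.85 and 8.06 (1.83-fold lower, adjusted p = 0.010), and socs3b 8.07 and 7.27 against 4.58, 4.57 and 4.2 (1.71-fold lower, adjusted p = 0.021). None of these genes had overlapping groups, which was so for all 175 lower calls. Irf1b, an interferon regulatory factor gene, averaged 2.89 and 0.505 (adjusted p = 0.041), and stat3, the transcription factor itself, 35.3 and 26.2 (adjusted p = 0.048). Tnfb, a tumour necrosis factor gene, averaged 1.13 and 0.317 (adjusted p = 0.038). Tnfb, mmp9 and irf1b had chimera means under 1 and entered the comparison only through their medaka level. The tnfb call was kept without an expression filter (adjusted p = 0.040) and lost with pseudocount 0.1 (0.050) and quantile normalization (0.20).

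In all, 9 of 53 tested inflammatory signalling genes were lower and none was higher, 46 of 53 had a negative difference, and the median was -0.19. The chemokine gene ccl19a.1 read 7.80 and 16.0 in medaka and 0.227, 0 and 0.255 in chimeras without passing the test (adjusted p = 0.089), and the medaka libraries differed from each other. Genes outside the lists that were named after their values were seen included noxo1b, an NADPH oxidase organiser gene (3.91 and 0.176, adjusted p = 0.0031), irg1, an itaconate synthesis gene of activated macrophages (1.38 and 0.0158, adjusted p = 0.010), ptafr, the platelet activating factor receptor gene (2.13 and 0.677, adjusted p = 0.024), and hck, a kinase gene of myeloid cells (3.97 and 1.89, adjusted p = 0.032). Immediate early genes, a list made after values were seen, had 5 of 25 lower and none higher, among them c-fos (1.82 and 0.767, adjusted p = 0.048), junba (2.71 and 1.48, adjusted p = 0.048) and fosl1a (1.90 and 0.896, adjusted p = 0.048). Noxo1b, irg1, ptafr, c-fos and fosl1a had chimera means under 1 and entered the comparison only through their medaka level. With quantile normalization, 6 of 53 inflammatory signalling and 2 of 25 immediate early genes were called lower. Irg1, c-fos, junba and fosl1a lost their calls in that setting.

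Genes that mark myeloid cells had a median of -0.13, and 23 of 33 had a negative difference. Groups did not overlap in 15 lower and 2 higher members, against 22.7% of genes lower and 21.8% higher without overlap over all genes. Of the 33, mmp9 and 1 of 2 MFAP4 records (6.24 and 0.837 on average, adjusted p = 0.0034) were lower and none was higher. Both had chimera means under 1 and entered the comparison only through their medaka level. Mmp9 is also in the inflammatory list, and the other MFAP4 record was level (log2 0.01, adjusted p = 0.97). The summed rescaled FPKM of the list was 255 and 257 in medaka and 239 to 242 in chimeras. Spi1b, the myeloid master regulator gene, averaged 4.03 and 3.35 (adjusted p = 0.28), and lcp1, an actin bundling gene of leukocytes, 17.6 and 16.1 (adjusted p = 0.38). Both were lower in chimeras on average without a call. The part of myeloid cell number in the decrease of inflammatory genes was not tested. Of 19 calls in inflammatory, immediate early, interferon, acute phase and myeloid genes, 18 of them lower, 7 remained without medaka replicate 1, 6 without medaka replicate 2, 19 without chimera replicate 1, 4 without chimera replicate 2 and 9 without chimera replicate 3. The lost calls had adjusted p-values from 0.050 to 0.26, and mmp9, noxo1b, nfkbiaa and the lower MFAP4 record stayed called in every such setting. Dropping the expression filter left 7, and dropping limma's trend and robust options left 7.

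Several genes of glucose production and glycogen use fell in chimeras. Pck1, the rate-limiting enzyme of glucose synthesis, on chromosome 5 at 25350583 to 25353343, read 75.8 and 71.5 in medaka and 30.9, 31.9 and 30.5 in chimeras. The libraries of each group were close and the groups far apart (73.7 ± 3.08 against 31.3 ± 0.815, SD, n = 2 each, 2.35-fold lower, log2 -1.21, SE 0.06, adjusted p = 0.0015). Pygmb, a glycogen phosphorylase gene, read 35.4 and 33.4 against 14.0, 14.9 and 14.1 (2.37-fold lower, adjusted p = 0.0019). G6pca.2, whose enzyme releases free glucose, read 5.54 and 5.07 against 2.66, 2.46 and 2.33 (2.14-fold lower, adjusted p = 0.012). These 3 genes had the same order of groups in every library. Pck2, the mitochondrial counterpart of pck1, fell 1.41-fold (258 to 183, adjusted p = 0.041), and pgm1 and ugp2a, which link glucose phosphate to glycogen, fell 1.34-fold (adjusted p = 0.035) and 1.42-fold (adjusted p = 0.029). Pygma, a second glycogen phosphorylase gene, moved the other way (1.89 and 3.15, adjusted p = 0.041). In a list of glycogen and glucose synthesis genes made after values were seen, 6 of 25 were lower and 1 higher, 15 had a negative difference and the median was -0.07.

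In glycolysis 2 of 38 genes were lower (5.26%, against 1.28% over all genes) and none was higher. With FPKM as deposited 1 was lower, and with 3 separate chimera libraries 7 were lower. Eno1a, an enolase gene, read 309 and 288 against 178, 186 and 179.8 (1.64-fold lower, adjusted p = 0.013), and aldocb, an aldolase gene, 218 and 212 against 148, 164 and 150.0 (1.38-fold lower, adjusted p = 0.041). The median of the 38 genes was -0.03, and pgk1, for example, read 151 and 148 against 113, 125 and 117 without a call (adjusted p = 0.089). Apoa4a, a lipid carrier gene of yolk syncytial layer and gut, read 304 and 254 against 129, 135 and 131 (2.1-fold lower, adjusted p = 0.011), with all chimera libraries well below the medaka pair. Hmgcra, the rate-limiting enzyme of sterol synthesis, fell from 12 to 6.70 (adjusted p = 0.022) and was the only call among 35 sterol genes. The liver and yolk list had 2 of 28 lower (pck1 and apoa4a, 7.14%) and 1 higher (3.57%, against 0.918% over all genes). The higher gene was fabp7a, which is also among the glial and neural progenitor calls above. It is counted in the 17 calls that follow. Of 17 calls in these metabolic genes, 3 remained without medaka replicate 1, 4 without medaka replicate 2, 17 without chimera replicate 1, 4 without chimera replicate 2 and 10 without chimera replicate 3 (lost calls at adjusted p from 0.051 to 0.25). Pck1 and pygmb were called in all of these settings. Without an expression filter 6 remained, and without limma's trend and robust options 5. With FPKM as deposited 13 remained, and aldocb, pck2, pgm1 and the ferritin gene fth1b lost their calls.

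**Figure D5:**
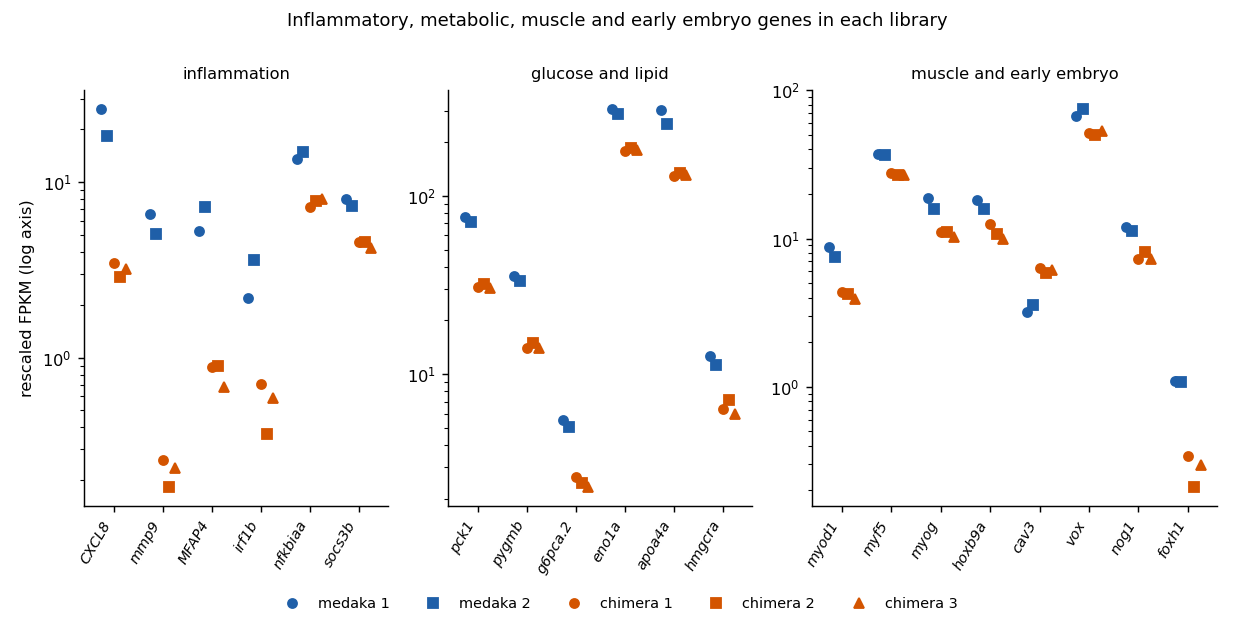
Rescaled FPKM (log axis) of 6 inflammatory genes, 6 genes of glucose and lipid metabolism and 8 muscle and early embryo genes in the 2 medaka libraries (blue) and the 3 chimera libraries (orange). All chimera points lie below all medaka points except for cav3, where they lie above.

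The genes that commit cells to muscle were lower, and the muscle list as a whole had a small negative median of -0.10. Of its 59 tested members, 42 had a negative difference. Myf5 and myod1 are the transcription factors that set up muscle precursors in the somites, and myog acts when these cells differentiate. Myod1 read 8.81 and 7.56 in medaka and 4.35, 4.24 and 3.90 in chimeras (1.96-fold lower, log2 -0.82, SE 0.09, adjusted p = 0.015). Myf5 read 37.4 and 36.6 against 27.5, 26.9 and 26.9 (1.37-fold lower, adjusted p = 0.028), and myog 18.8 and 15.7 against 11, 11.1 and 10.3 (1.59-fold lower, adjusted p = 0.038). For each of these 3 factors the chimera libraries agreed closely and lay below both medaka libraries. Structural genes were mixed. Neb, the giant thin filament protein gene, fell from 2.46 to 1.11 (adjusted p = 0.041) and mybphb, a myosin binding protein gene, from 4.46 to 2.83 (adjusted p = 0.041). Cav3, the muscle caveolin gene, rose from 3.38 to 6.04 (adjusted p = 0.021), and 1 tnni2a.4 record, a fast troponin gene, rose from 20.1 to 28.8 (adjusted p = 0.042).

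Over the muscle list 7 of 59 genes were lower and 2 higher with a median of -0.10. These were 11.9% and 3.39%, against 1.28% lower and 0.918% higher over all genes. Groups did not overlap in 24 lower and 11 higher members, against 22.7% of genes lower and 21.8% higher over all genes. The summed rescaled FPKM of the list was 1313 and 1318 in medaka and 1268 to 1343 in chimeras. Of 21 heart genes only vmhc, the ventricular myosin heavy chain gene, was called (2.60 and 4.09, adjusted p = 0.042). MUSTN1, a musculoskeletal nuclear protein gene and 1 of the 12 largest increases, read 22.5 and 24.8 against 35.5, 45.3 and 39.2 (1.75-fold, adjusted p = 0.031). Among the hox genes, which pattern the body axis from head to tail, hoxb9a was the 1 call of 26 (18.3 and 15.9 against 12.6, 10.8 and 9.94, adjusted p = 0.033), and 22 of 26 had a negative difference with a median of -0.17. Hoxd9 and hoxc10a, named after their values were seen, are cases in which chimera replicate 1 stood apart from replicate 3: hoxd9 read 9.18 and 8.92 in medaka and 7.49, 2.97 and 3.21 in chimeras (adjusted p = 0.19), and hoxc10a 4.88 and 4.74 against 4.14, 1.56 and 1.62 (adjusted p = 0.12). Of 17 calls in muscle, heart, notochord, hox and tailbud genes, none remained without medaka replicate 1, 2 without medaka replicate 2, 17 without chimera replicate 1, 1 without chimera replicate 2 and 5 without chimera replicate 3. Lost calls had adjusted p-values from 0.050 to 0.26. Dropping the expression filter left none, and dropping limma's trend and robust options left none.

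The calls among genes of early patterning, of Bmp and Fgf signalling and of germ cells were all lower. Vox, a ventral homeobox repressor gene, read 66.7 and 75.3 in medaka and 51.6, 49.8 and 53 in chimeras (1.39-fold lower, adjusted p = 0.048). Nog1, a noggin gene whose product binds and blocks Bmp, read 12 and 11.2 against 7.29, 8.17 and 7.29 (1.5-fold lower, adjusted p = 0.037). Foxh1, the partner of Smad in Nodal signalling, read 1.09 and 1.07 against 0.343, 0.211 and 0.295 (4.07-fold lower, adjusted p = 0.041) on about 37 fragments per library. It entered the comparison only through its medaka mean of 1.08, and its call was kept without an expression filter (adjusted p = 0.046) but lost with pseudocount 0.1 (0.062), with quantile normalization (0.18) and without limma's trend and robust options (0.053). No chimera library reached a medaka library for any of them. Vox and nog1 were the 2 calls among 55 Bmp and TGF-beta genes (3.64% lower, against 1.28% over all genes), whose median was -0.07. Zar1, an oocyte gene (4.31 and 2.43, adjusted p = 0.041), and dmrt1, a gonad transcription factor gene (1.23 and 0.270, adjusted p = 0.035, but 0.17 with quantile normalization, about 10 fragments), were lower among 7 tested germ cell genes. Dmrt1 entered the comparison only through its medaka level.

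A list of early patterning genes, made after values had been seen and therefore no independent evidence, held 6 lower and none higher among 22 tested, with 21 negative differences and a median of -0.42. Its summed rescaled FPKM was 279 and 289 in medaka and 223 to 229 in chimeras. Pou5f3, the pluripotency factor gene of the fish blastula, read 4.1 and 4.00 against 2.69, 2.72 and 2.73, just above the threshold (adjusted p = 0.050), as were sall4 (29.3 and 28.3 against 22.5, 22.8 and 22.5, adjusted p = 0.054) and the dorsal antagonist gene chd (2.97 and 2.78 against 1.93, 1.83 and 1.86, adjusted p = 0.068). Foxd4, a neural ectoderm factor gene (8.90 and 6.18, adjusted p = 0.034), and aplnr2, an apelin receptor gene that guides gastrula movements (5.43 and 3.03, adjusted p = 0.021), passed. None of 9 calls in early embryo, Bmp, germ cell and Fgf genes and in ddit4 remained without medaka replicate 1, without medaka replicate 2 or without chimera replicate 2. Without chimera replicate 1 and chimera replicate 3, 9 and 2 remained, and lost calls had adjusted p-values from 0.050 to 0.21. Without an expression filter 2 remained, and without limma's trend and robust options none.

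Retinoic acid genes moved in both directions, with 3 of 27 higher and 2 lower. These were 11.1% and 7.41%, against 0.918% higher and 1.28% lower over all genes. Retinoic acid is made from vitamin A, carried inside cells by Crabp proteins and degraded by Cyp26 enzymes. Cyp26a1, the degrading enzyme of tailbud and anterior neural plate, read 7.19 and 8.53 against 5.15, 4.99 and 4.48 (1.60-fold lower, adjusted p = 0.041). Cyp26b1, its counterpart of hindbrain and skeleton, read 15.2 and 15.6 against 21.2, 20.9 and 21.3 (1.37-fold higher, adjusted p = 0.030). The 2 enzyme genes thus moved in opposite directions in every library. Crabp2b read 14.7 and 14.6 against 21.4, 22.4 and 23.0 (1.52-fold higher, adjusted p = 0.014), and rbp7a, a cellular retinol binding protein gene, 27.2 and 26.6 against 14.9, 15.6 and 13.8 (1.80-fold lower, adjusted p = 0.0078). Another pair of opposed enzymes, named after their values were seen, handles vitamin D: cyp24a1, which inactivates it, read 5.17 and 5.06 against 2.51, 2.24 and 2.59 (2.14-fold lower, adjusted p = 0.013), and cyp27b1, which activates it, 32.6 and 29 against 44.8, 47.1 and 44.0 (1.48-fold higher, adjusted p = 0.030). Of 7 calls among these genes, none remained without medaka replicate 1, 1 without medaka replicate 2, 7 without chimera replicate 1, 1 without chimera replicate 2 and 5 without chimera replicate 3 (lost calls at adjusted p from 0.051 to 0.20). Dropping the expression filter left 3, and dropping limma's trend and robust options left 2.

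The matrix, stress and energy lists described here held at most 4 calls each, against 0.918% of genes higher and 1.28% lower over all genes. No call was made in the unfolded protein response list (35 tested, 27 with a negative difference, median -0.07). The p53 and apoptosis list also had none (41 tested, 24 with a negative difference, median -0.02). Several lists were near that share. Genes called lower made up 1.28% of heat shock and chaperonin, 1.45% of respiratory chain, 1.14% of splicing and 0.813% of chromatin genes. Hspb1, a small heat shock protein gene and the most abundant of these, read 2154 and 2263 in medaka and 1333, 1241 and 1337 in chimeras (1.71-fold lower, adjusted p = 0.014), the 1 call among 78 heat shock and chaperonin genes. Efemp2a, an elastic fibre gene, fell from 24.2 to 14.0 (adjusted p = 0.012). Plod1a, which hydroxylates collagen lysines, read 29.6 and 30.9 against 19.1, 18.7 and 19.3 (1.60-fold lower, adjusted p = 0.012), and fkbp10a, a collagen chaperone gene, fell 1.43-fold (adjusted p = 0.031). These 2 were the calls among 21 collagen modification genes, a list made after values were seen, in which 19 had a negative difference and the median was -0.16. Among 82 collagen and matrix genes, efemp2a and the MFAP4 record were lower and lum and SPOCK1 were higher. Cox6b1, a cytochrome oxidase subunit gene, was the 1 call of 69 respiratory chain genes (125 and 80.9, adjusted p = 0.041).

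Of 25 hypoxia genes, epoa, an erythropoietin gene (10.7 and 6.97, adjusted p = 0.048), and ddit4, a stress inhibitor gene of growth signalling (22.8 and 16.9, adjusted p = 0.038), were lower. Of 41 oxidative stress genes, sod1, the cytosolic superoxide dismutase gene, was higher (59.0 and 78.3, adjusted p = 0.042), and tkta, a transketolase gene (3.16 and 1.43, adjusted p = 0.018), and fth1b, a ferritin gene (8.05 and 5.54, adjusted p = 0.039), were lower. CBX7, a Polycomb subunit gene, was the 1 call among 123 chromatin genes (16.9 and 10.7, adjusted p = 0.035), and rbm24b the 1 call among 88 splicing genes (13.9 and 9.0, adjusted p = 0.030). Of 18 calls in these genes, 3 remained without medaka replicate 1, 3 without medaka replicate 2, 18 without chimera replicate 1, 4 without chimera replicate 2 and 9 without chimera replicate 3. Adjusted p-values of the lost calls ran from 0.050 to 0.27. Without an expression filter 6 remained, and without limma's trend and robust options 4. Mmp9 and the MFAP4 record were among the calls that remained in both of these settings. The 18 calls include ctsk, a higher matrix protease gene. They also include mmp9, the MFAP4 record, cx44.1, tkta, fth1b and ddit4, which are counted in earlier sets of calls as well.

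The remaining organs gave few calls, to be set against 0.918% of genes higher and 1.28% lower over all genes. In the pancreas list, nkx6.1, a beta cell and neural progenitor factor gene, rose (3.73 and 6.61, adjusted p = 0.035), and gcga, a glucagon gene, fell (29.7 and 21.3 on average, adjusted p = 0.029), among 13 tested with a median of 0.34. One insulin record read 4.03 and 2.93 against 7.99, 6.71 and 8.84, and its groups did not overlap, but it missed the threshold (adjusted p = 0.054). Epb41a, a red cell membrane skeleton gene, was the 1 call of 29 erythroid genes (3.10 and 5.67, adjusted p = 0.023), and slc4a1a, the red cell anion exchanger gene, read 12.5 and 13.9 against 17.9, 17.8 and 18.0 without a call (adjusted p = 0.054). In neural crest and pigment, a TYR record (tyrosinase, 7.50 and 10.5, adjusted p = 0.038) and pax7a (9.39 and 12.6, adjusted p = 0.047) rose and ednrba, an endothelin receptor gene, fell (12.6 and 8.91, adjusted p = 0.037), among 51 tested.

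Hce, a hatching enzyme gene, read 129.6 and 172 against 253, 247 and 253 (adjusted p = 0.068), and hceb 8.51 and 10.9 against 11.2, 24.7 and 21.8 (adjusted p = 0.19), so no call was made among 4 hatching gland genes. Tk1 (1.3-fold, adjusted p = 0.048) and 1 rrm1 record (1.38-fold, adjusted p = 0.030), both of nucleotide supply, were the calls among 56 DNA replication genes, of which 49 had a positive difference with a median of 0.10. Endothelium, ionocyte and kidney tubule lists had 1 higher gene each (s1pr1, atp6v1e1a and lhx1b) and none lower. Of 14 calls in these and other organ genes, none remained without medaka replicate 1, 1 without medaka replicate 2, 14 without chimera replicate 1, none without chimera replicate 2 and 4 without chimera replicate 3 (lost calls at adjusted p from 0.051 to 0.29). Dropping the expression filter left none, and dropping limma's trend and robust options left none.

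Several of the largest changes were in genes without a clear place in these groups. Lye, which has 3 tested records on chromosome 11, had 2 lower: the first, at 4522306 to 4525188, read 47.8 and 42.9 against 22.0, 16.4 and 20.9 (2.4-fold lower, adjusted p = 0.023), and the second, at 4551639 to 4553091, 79.8 and 81.2 against 60.9, 50.6 and 57.3 (adjusted p = 0.041). Si:ch211-153b23.5, on chromosome 10 at 14019527 to 14020859, fell from 21.3 ± 3.06 to 6.99 ± 0.417 (SD, n = 2 each, 3.05-fold lower, adjusted p = 0.0040). Its neighbour si:ch211-153b23.3 was also lower (1.12 and 0.295, adjusted p = 0.038) and entered the comparison only through its medaka level. Between them, si:ch211-153b23.4 read 2.51 and 2.56 against 1.57, 1.34 and 1.54 (adjusted p = 0.051). The gene listed as PNchrM fell from 87.9 to 35.4 (adjusted p = 0.011) and tmem45a from 13.1 to 6.87 (adjusted p = 0.041). Slc43a2a, an amino acid transporter gene counted above with the lens calls, was among the largest increases (22.2 and 21.9 against 38.8, 37.6 and 39, adjusted p = 0.0055).

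Very short RNAs also met the rule for the largest decreases, and their values rest on very few fragments. A 5S_rRNA record of 107 bases read 52.6 and 31.1 in medaka and was listed at 0 in all chimeras (adjusted p = 0.022), on about 1 fragment per library. SNORD22, a small nucleolar RNA of 125 bases, read 139 and 123 against 63.9, 73.7 and 58.6 (adjusted p = 0.021) on about 12 fragments. SNORA27, another of these, read 52.3 and 46.3 against 17.5, 25.3 and 39.3 (adjusted p = 0.014) on about 6 fragments. With 3 separate chimera libraries it was not called (adjusted p = 0.27), and chimera replicates 1 and 3 differed by more than their mean differed from replicate 2. The microRNA gene ola-mir-10d read 14.2 and 16.7 in medaka and was listed at 0 in the chimeras (adjusted p = 3.5e-05). This record and the 5S_rRNA record entered the comparison only through their medaka level. Loci under 300 bases made up 6 of the 126 higher and 11 of the 175 lower calls. Of 15 calls in these genes, 6 remained without medaka replicate 1, 8 without medaka replicate 2, 13 without chimera replicate 1, 8 without chimera replicate 2 and 9 without chimera replicate 3, with lost calls at adjusted p from 0.051 to 0.67. No expression filter left 8, and plain limma without its trend and robust options 6.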

How the data were processed

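Poly(A)-selected RNA of total embryos was sequenced by the authors and quantified as FPKM, the deposited unit, per gene and library on the medaka genome. HISAT2 and Cufflinks 2.2.1 are named in the submitters' processing notes. Neither the medaka build nor the handling of reads shared by gene copies is given there or in the labels. Because FPKM divides by library totals, a few abundant genes can shift all others, so values were rescaled by median ratios (0.9716 to 1.06). Fragments per gene were implied from the deposited confidence limits.

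Genes were tested with limma 3.58.1 (R 4.3.3, trend and robust options) on log2(rescaled FPKM + 1), with Benjamini-Hochberg adjustment over 13721 genes and a threshold of 0.05. Filters left out 5811 identifiers under FPKM 1 in both groups, 924 with zebrafish reads and 3 without a valid estimate. Of the tested genes, 10539 carried a symbol; 22 symbols contain chrM and are printed as listed. The higher group mean was 0.9 to 1 in 211 identifiers and 1 to 1.1 in 180. The planned fit used 3 separate chimera libraries; averaging chimera replicates 1 and 3 was chosen after seeing the data, and both are reported. The code was tested on simulated data.

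Genes were named if called, at FPKM 10 or more in the higher group and without overlap (the 12 largest increases and 12 largest decreases), or among the 4 smallest p of each of 60 lists. The members, lists and tests were chosen with earlier results of these data known, and 6 further lists after values were seen. Alternatives changed the pseudocount, filters, scaling, limma options and libraries used.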

Additional observations from a re-analysis of the deposited data

How the results depend on the processing

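No paired analysis was possible because the replicate numbers were given in accession order and pair no samples. The main counts were 126 higher and 175 lower genes, with 73 and 110 of at least 1.5-fold. With 3 separate chimera libraries there were 366 higher and 437 lower, and with all 3 groups in the fit 550 and 637. Without trend or robust options there were 23 higher and 41 lower, all of at least 1.5-fold. Without an expression filter there were 31 higher and 58 lower, of which 28 and 57 reached 1.5-fold. With FPKM as deposited 211 genes were higher, 113 of them by at least 1.5-fold. A pseudocount of 5 left 25 higher and 40 lower of at least 1.5-fold, and a minimum mean FPKM of 5 left 48 and 72. Other scalings, pseudocount 0.1, the other zebrafish filters and leaving out loci under 300 bases (added after seeing the data) kept all 4 counts within 1.5 times. Leaving out 1 library gave 25 to 203 higher and 61 to 407 lower genes, and 25 to 90 higher and 61 to 244 lower of at least 1.5-fold. Without a medaka library or chimera replicate 2 a group has 1 sample, assumed to vary like the other. The cause of these shifts was not tested. The MFAP4 record that was not called had a log2 difference of 0.01, of 0.11 without medaka replicate 1, of -0.10 without medaka replicate 2 and of -0.01 without chimera replicate 1. Of the tested genes, 1932 had under 100 fragments on average, where counting error limits what can be seen.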
